A study of Oryza sativa with 4 samples.

Results

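Growth of the wild-type (WT) rice panicle was followed by setting an array of panicles of 9–12 cm against an array of panicles of 5–8 cm. These are the 2 WT arrays among the 4 arrays of the series, chosen by the length and the genotype that the labels give. The WT plants were *Oryza sativa* ssp. *indica*, Zhongxian 3037, and the other 2 arrays measured the mutant *phoenix* (*pho*) at 9–12 cm and at 5–8 cm. *pho* arose among offspring of Zhongxian 3037, carries a mutated *OsMADS15* and a silenced *OsMADS1*, and bears plantlets in place of flowers. All plants grew in paddy fields, and the total RNA of whole panicles was put on Affymetrix GeneChip Rice Genome Arrays. The *pho* arrays serve here only to say which shifts of WT were shared.

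The rice panicle elongates inside the leaf sheath before heading, and panicle length is a common guide to the stage of the spikelets. During this growth the anther passes from meiosis to free microspores. The tapetum, the innermost layer of the anther wall, then secretes lipids and proteins for the pollen wall and is finally degraded. The stalk, the branches and the hulls thicken their cell walls with cellulose and lignin.

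There was 1 array per length in WT, so no difference between the lengths has an error, and none was tested. The arrays measured whole panicles, so more cells of a type and more RNA per cell cannot be told apart. The sources used here do not say how many panicles were pooled or at what time of day they were collected, and the study's methods describe panicles of 5–8 cm only. The longer WT sample is WT by its title, source and genotype, while a line of its description names *pho*. The signal of *OsMADS1* was 10671 in WT of 9–12 cm and 10166 in WT of 5–8 cm, against 109 in *pho* of 9–12 cm and 4.6 in *pho* of 5–8 cm. The sample was used as WT.

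Of 57258 probe sets other than the array controls, 23328 (40.7%) reached a mean signal of 100 in the WT arrays. They stood for 14146 genes, of which 2051 had a name, and 7014 of these probe sets had no gene in the annotation. The tapetal cysteine protease gene *CP1*, with signals of 147 at 9–12 cm and 52.7 at 5–8 cm in WT, lay just under this minimum. The meiotic cyclin gene *SDS*, with 134 at 9–12 cm and 71.5 at 5–8 cm, lay just above it. Each ratio is log2 of the signal at 9–12 cm plus 16 over the signal at 5–8 cm plus 16, so that 1 stands for 2-fold, and it understates the change of dim genes. Rose and fell are written here of genes at least 2-fold apart by this ratio.

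The WT panicle of 9–12 cm had 1511 probe sets at least 2-fold above the panicle of 5–8 cm (6.48% of those compared) and 657 at least 2-fold below it (2.82%). Counted by gene, with the brightest probe set standing for each, 855 genes rose (6.04%) and 361 fell (2.55%). The median log2 ratio was -0.01 over all probe sets, with the 5th percentile at -0.79 and the 95th percentile at 1.15. At least 4-fold differences numbered 380 up and 114 down, at least 8-fold 140 up and 44 down, and at least 16-fold 68 up and 12 down. The excess of rises was largest among dim probe sets. When the probe sets were split by mean signal into 5 classes of like size, 526 rose and 150 fell in the dimmest class, and 144 rose and 84 fell in the brightest.

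The balance of rises and falls depended on how the arrays were scaled. Rises made up 69.7% of the shifts with the authors' scaling, 60.6% after quantile normalization and 37.7% when arrays were centred on their median signal, which was 60.5 at 9–12 cm and 49.0 at 5–8 cm. Scaled to the hybridization controls, whose summed signal was 120710 at 9–12 cm and 85637 at 5–8 cm, rises made up 19.4%. Quantile normalization moved the median log2 ratio of all probe sets to -0.05, centring to -0.30 and the hybridization controls to -0.49. Lists of genes are therefore best read against the median of all genes, which was -0.02 with the authors' scaling.

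The arrays also differed in a sign of RNA quality. The 3′ over 5′ signal ratio was 4.95 at 9–12 cm and 10.6 at 5–8 cm in WT for the actin control, and 9.62 at 9–12 cm and 16.4 at 5–8 cm for the GAPDH control. Its part in the shifts was not tested.

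**Figure D1:**
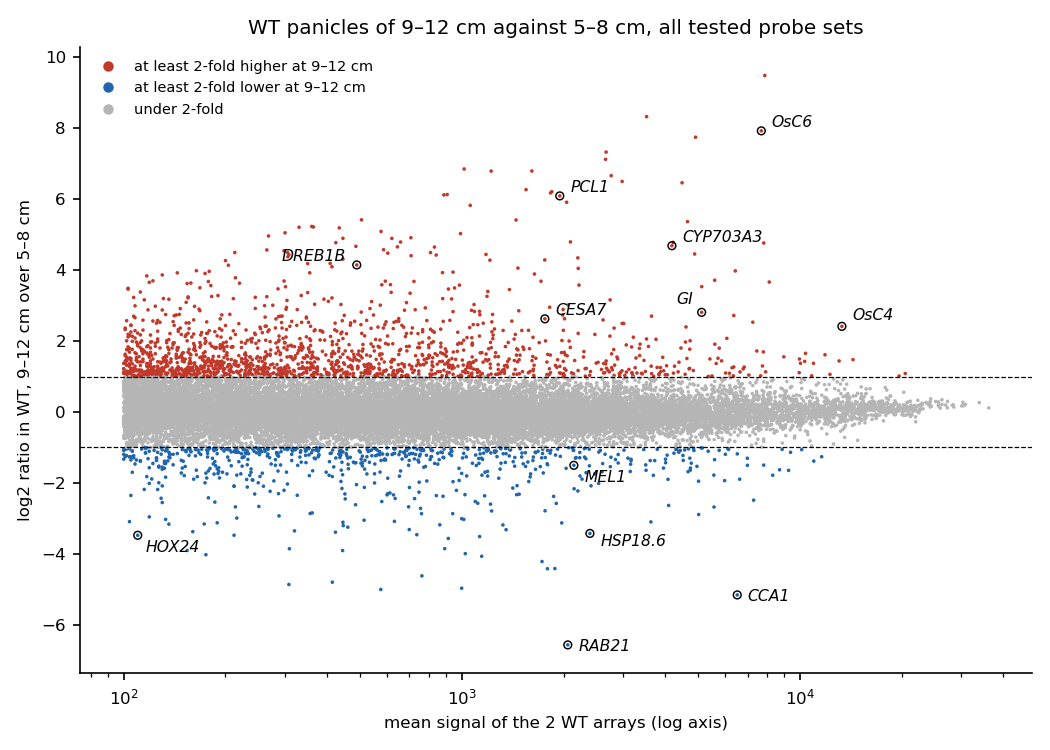
Each point is 1 of 23328 probe sets, with the mean signal of the 2 WT arrays on a log axis and the log2 ratio of 9–12 cm over 5–8 cm on the y axis. The 1511 red points rose and the 657 blue points fell at least 2-fold, past the dashed lines, and the widest ratios run to 9.49 above and -6.57 below.

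Genes for the pollen wall and tapetal secretion had the highest median ratio of the lists described in WT, given the minimum signal. Without that minimum their median was 2.415, just under the 2.463 of the secondary wall genes. Of 21 entries of this list, 7 could be found among the genes on the array, 5 passed the minimum signal, and 4 of these 5 rose, with a median log2 ratio of 3.50. *OsC6*, a lipid transfer protein gene of the tapetum needed for the pollen wall, had a signal of 15333 at 9–12 cm and 47.0 at 5–8 cm in WT, a log2 ratio of 7.93. The signal at 5–8 cm was under the median of its array. In *pho* the gene had 204 at 9–12 cm and 28.0 at 5–8 cm. *CYP703A3*, a cytochrome P450 gene that hydroxylates fatty acids for the anther cuticle and the pollen wall, had 8069 at 9–12 cm and 298 at 5–8 cm in WT, and 128 at 9–12 cm and 22.2 at 5–8 cm in *pho*. *RAFTIN1*, a BURP-domain protein gene of the tapetum needed for pollen development, had 1763 at 9–12 cm and 142 at 5–8 cm in WT, against 64.8 at 9–12 cm and 7.5 at 5–8 cm in *pho*.

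For each of these genes the longer WT panicle was the highest of the 4 arrays by a wide margin. Among all 855 genes that rose, it was the highest in 431 (50.4%). The shorter WT panicle came next for *CYP703A3* and *RAFTIN1*, while for *OsC6* it lay below the longer *pho* panicle. *OsC4*, an anther lipid transfer protein gene chosen after its values were seen, was already bright at 5–8 cm and had a log2 ratio of 2.42. The exception in the list was *AP25*, an aspartic protease gene of tapetal cell death, also chosen afterwards. Its signals were 16555 at 9–12 cm and 10580 at 5–8 cm in WT, less than 2-fold apart. All 4 genes that rose also rose in *pho*, at signals below those of WT of the same length.

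Regulators of the anther wall and tapetum were mostly less than 2-fold apart. Of 9 tested members, 1 rose and none fell, with a median log2 ratio of 0.10. It was -0.21 with centred arrays and -0.40 with the hybridization controls, where all probe sets had medians of -0.30 and -0.49. With the hybridization controls 1 member, *TIP2*, also passed 2-fold on the lower side, and it was chosen after its values were seen. The gene that rose was *PTC1*, a PHD-finger factor gene that acts in the death of the tapetum and in pollen wall formation. It had 497 at 9–12 cm and 67.3 at 5–8 cm in WT, and 196 at 9–12 cm and 27.9 at 5–8 cm in *pho*. *TDR*, a bHLH factor gene of tapetal degradation that was chosen after its values were seen, had 1585 at 9–12 cm and 789 at 5–8 cm in WT, a log2 ratio of 0.99 just short of the limit. The other 7 lay between -0.52 and 0.46.

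Genes of meiosis and germ cells had no rise among 11 tested members, and 2 fell. *MEL1*, an Argonaute gene of germ cells, had 1111 at 9–12 cm and 3179 at 5–8 cm in WT, a log2 ratio of -1.50, and in *pho* 259 at 9–12 cm and 650 at 5–8 cm. *DMC1B*, which encodes the strand exchange protein of meiotic recombination, had 163 at 9–12 cm and 492 at 5–8 cm in WT, a log2 ratio of -1.51, and in *pho* 79.6 at 9–12 cm and 67.7 at 5–8 cm. Rice has another, near-identical *DMC1* gene, so the signal can come from either copy. For both genes the shorter WT panicle held the highest of the 4 signals, as it did for 91 of all 361 genes that fell. The 9 other members lay between -0.62 and 0.77, and the list's median of -0.23 lay below that of all probe sets under each scaling.

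Other genes with the largest rises in WT belong to no list of the anther. *NIP4-1*, of the aquaporin family, had 568 at 9–12 cm and 34.5 at 5–8 cm in WT, and 85.3 at 9–12 cm and 10.2 at 5–8 cm in *pho*. *BIP4*, a gene of the BiP chaperone family, had 235 at 9–12 cm and 3.90 at 5–8 cm in WT, and 58.0 at 9–12 cm and 4.90 at 5–8 cm in *pho*. *Chia1d*, a chitinase gene, had 11084 at 9–12 cm and 1667 at 5–8 cm in WT, against 277 at 9–12 cm and 65.5 at 5–8 cm in *pho*. All of these had their highest signal in the longer WT panicle, as did *HXK6*, a hexokinase gene, with 1663 at 9–12 cm and 220 at 5–8 cm in WT and 318 at 9–12 cm and 108 at 5–8 cm in *pho*. The widest ratio of any probe set, a log2 ratio of 9.49, belonged to a probe set without a gene in the annotation. It had 15747 at 9–12 cm and 5.90 at 5–8 cm in WT, and 17.0 at 9–12 cm and 0.90 at 5–8 cm in *pho*.

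**Figure D2:**
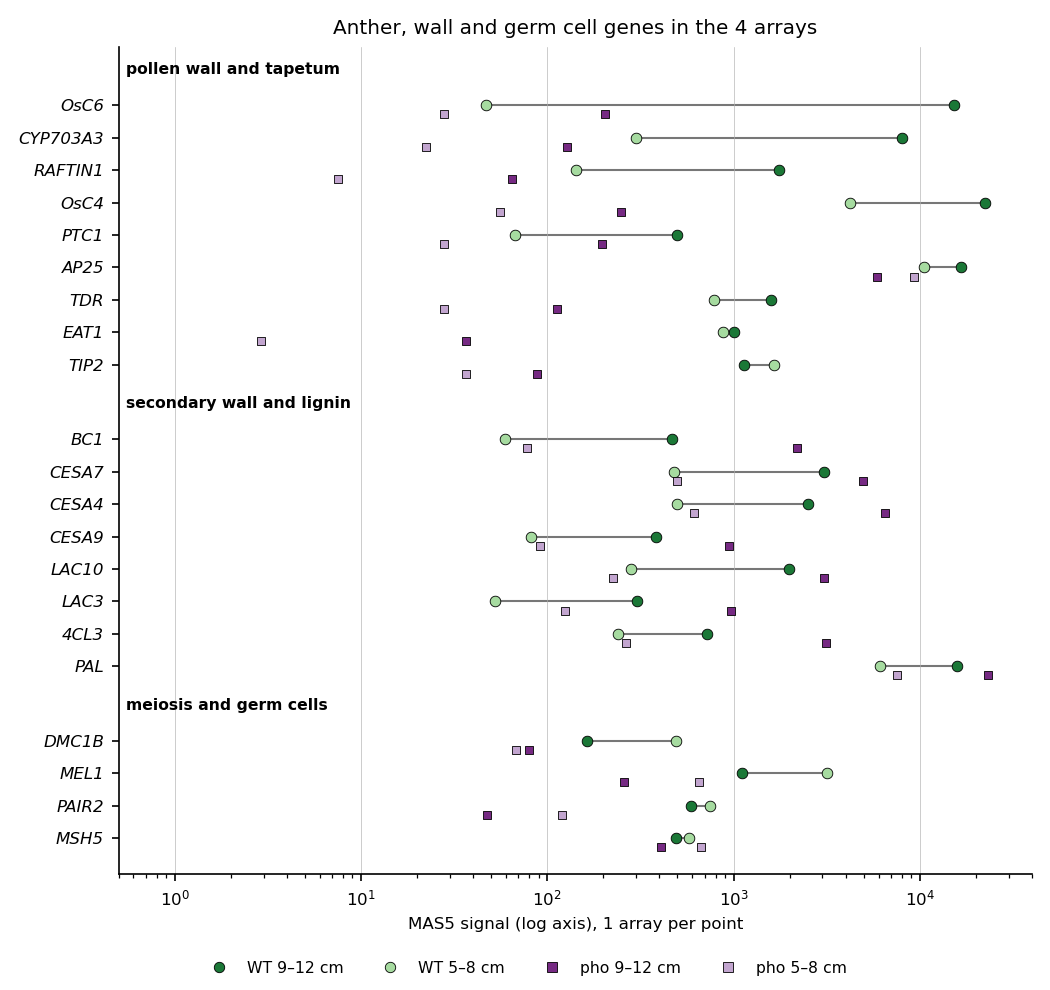
MAS5 signals on a log axis, 1 array per point, for genes of the pollen wall, tapetum, secondary wall, lignin and meiosis; circles are WT, squares are *pho*, and dark symbols are 9–12 cm. *OsC6* at 15333 against 47.0 has the widest gap between the WT circles. The secondary wall genes also have a wide gap in *pho*, while *MEL1* and *DMC1B* lie lower in the longer WT panicle.

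Genes of the secondary cell wall rose together. The 4 tested members, of 12 entries, all rose, with a median log2 ratio of 2.46 in WT. *CESA7*, a cellulose synthase of the secondary wall, had 3042 at 9–12 cm and 479 at 5–8 cm in WT, and 4931 at 9–12 cm and 495 at 5–8 cm in *pho*. *CESA4*, which acts in the same synthase complex, had 2512 at 9–12 cm and 498 at 5–8 cm in WT, and 6462 at 9–12 cm and 614 at 5–8 cm in *pho*. *BC1*, a COBRA-like gene whose loss makes rice stems brittle, had 465 at 9–12 cm and 59.2 at 5–8 cm in WT, and 2201 at 9–12 cm and 78.0 at 5–8 cm in *pho*. *CESA9*, the remaining cellulose synthase of that complex and chosen after its values were seen, had a log2 ratio of 2.02. In all 4 the shorter WT panicle was the lowest of the arrays and the longer *pho* panicle the highest, unlike the pollen wall genes. The shorter WT panicle was also the lowest in 446 of all 855 genes that rose. The 5 cellulose synthase genes of the primary wall had no member past 2-fold, and their log2 ratios lay between 0.27 and 0.93. Their median of 0.42 was -0.08 with the hybridization controls, against -0.49 over all probe sets, and above 0 with the other scalings.

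Lignin and phenylpropanoid genes rose as well. Of 24 matched genes 15 were tested, of which 10 rose and 1 fell, with a median log2 ratio of 1.40 that was 0.91 with the hybridization controls, where 5 rose and 1 fell. *LAC10*, a laccase gene, had 1979 at 9–12 cm and 282 at 5–8 cm in WT, and 3073 at 9–12 cm and 225 at 5–8 cm in *pho*. *LAC3* had 302 at 9–12 cm and 52.2 at 5–8 cm in WT, and 973 at 9–12 cm and 124 at 5–8 cm in *pho*. *LAC4* had 230 at 9–12 cm and 57.0 at 5–8 cm in WT, and 660 at 9–12 cm and 84.3 at 5–8 cm in *pho*. Laccases oxidize the lignin monomers that then polymerize in the wall. Earlier steps of the pathway rose too. A *PAL* gene, for the enzyme that opens it, had a log2 ratio of 1.37, and *4CL3*, a ligase gene, had 1.53; both were chosen after their values were seen. The member that fell was *CAD3*, named for cinnamyl alcohol dehydrogenase, with 3057 at 9–12 cm and 6307 at 5–8 cm in WT and 4236 at 9–12 cm and 5219 at 5–8 cm in *pho*. *CHS*, which leads into flavonoids, had 2549 at 9–12 cm and 218 at 5–8 cm in WT and 11387 at 9–12 cm and 615 at 5–8 cm in *pho*, but its other probe set had a log2 ratio of 0.17 in WT. *TUB8*, a beta-tubulin gene, had 1688 at 9–12 cm and 138 at 5–8 cm in WT and 4060 at 9–12 cm and 364 at 5–8 cm in *pho*.

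Genes of cell enlargement rose less. Of 14 tested expansins, which loosen the cell wall, 4 rose and none fell, with a median of 0.51. All 4 rose in *pho* as well, but 4 others fell there, and the median of the list in *pho* was -0.79. *EXP2* had 1733 at 9–12 cm and 535 at 5–8 cm in WT, and 1528 at 9–12 cm and 682 at 5–8 cm in *pho*. *EXPB3* had 15070 at 9–12 cm and 5593 at 5–8 cm in WT and 15405 at 9–12 cm and 4907 at 5–8 cm in *pho*. Of 20 tested aquaporins, which carry water across membranes, 5 rose and 2 fell, with a median of 0.62. *PIP2;2* had 3615 at 9–12 cm and 1381 at 5–8 cm in WT and 6381 at 9–12 cm and 2673 at 5–8 cm in *pho*, and *PIP2;4* fell, with 632 at 9–12 cm and 1965 at 5–8 cm in WT and 1432 at 9–12 cm and 1831 at 5–8 cm in *pho*. The medians of both lists stayed above 0 under each scaling, at 0.02 for expansins and 0.13 for aquaporins with the hybridization controls, where 2 expansins rose and 3 fell, and 2 aquaporins rose and 2 fell.

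The genes of sugar use split. Of 34 tested sucrose and starch genes 4 rose and 2 fell, with a median of 0.17. The median was -0.16 with centred arrays, against -0.30 over all probe sets. With the hybridization controls it was -0.32, against -0.49 over all probe sets, and 2 rose and 4 fell. Beside *HXK6*, *SUS3*, a sucrose synthase gene, rose, with 862 at 9–12 cm and 295 at 5–8 cm in WT, and 119 at 9–12 cm and 58.7 at 5–8 cm in *pho*. *CIN2*, a cell wall invertase gene known for grain filling, had 2830 at 9–12 cm and 1009 at 5–8 cm in WT, and 188 at 9–12 cm and 488 at 5–8 cm in *pho*. Both genes that fell encode starch synthases. *SSII-2* had 400 at 9–12 cm and 1091 at 5–8 cm in WT, and 1126 at 9–12 cm and 925 at 5–8 cm in *pho*.

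**Figure D3:**
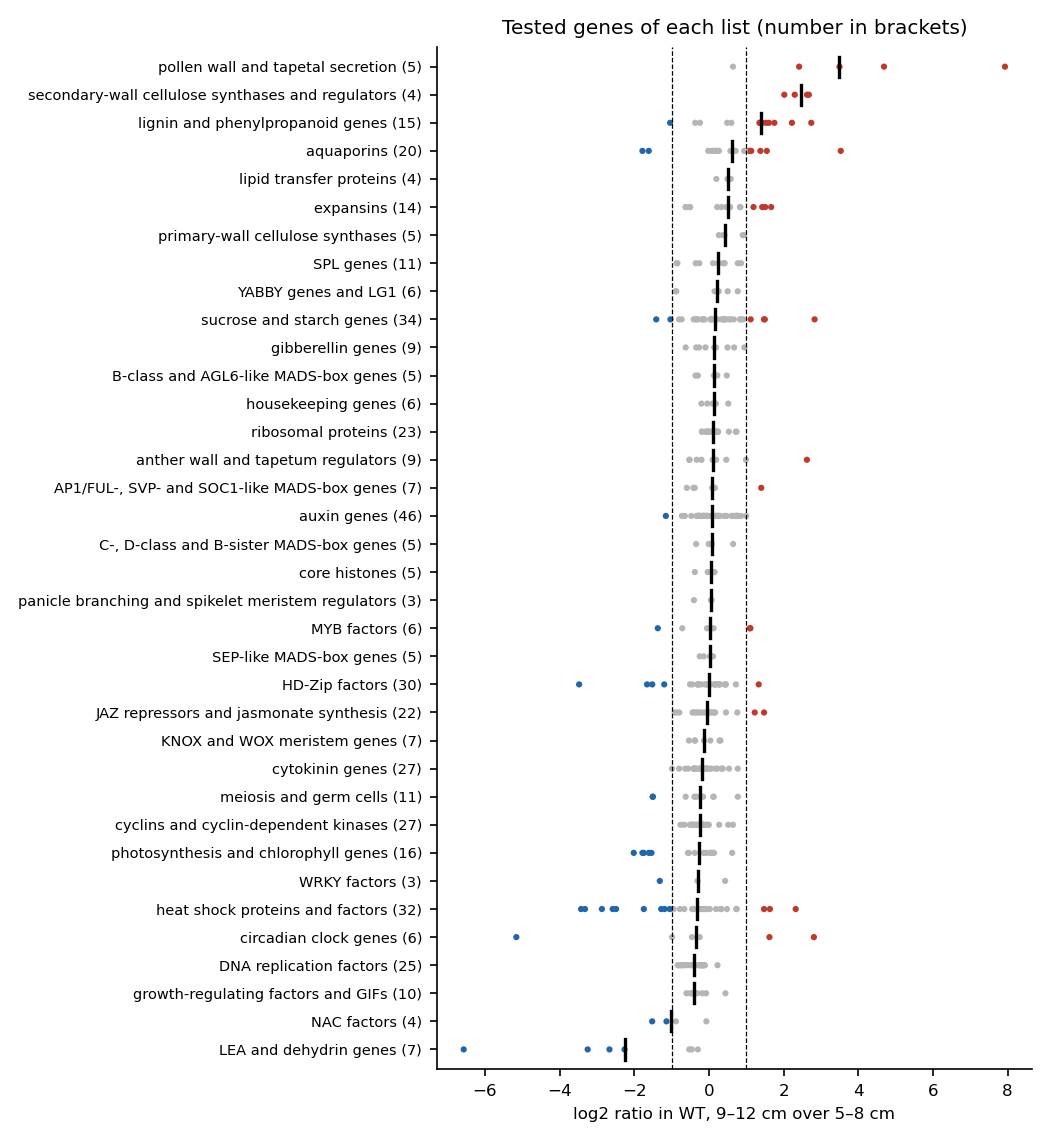
Each point is a tested gene of a list, at its log2 ratio of 9–12 cm over 5–8 cm in WT, and black bars are list medians. The pollen wall, secondary wall and lignin lists have medians of 3.50, 2.46 and 1.40, and the NAC and LEA lists have -1.01 and -2.26 at the other end, of which the NAC median was -0.15 without the minimum signal.

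Genes of the circadian clock held 1 of the widest falls and 2 rises. The clock is a loop in which morning genes repress evening genes and the reverse, so the level of its genes depends on the time of day. *CCA1*, a MYB factor gene of the morning, had a signal of 340 at 9–12 cm and 12714 at 5–8 cm in WT, a log2 ratio of -5.16. In *pho* it had 14071 at 9–12 cm and 14906 at 5–8 cm, so the longer WT panicle stood apart from the 3 other arrays. *PCL1*, an evening gene that belongs to no list, had 3857 at 9–12 cm and 40.7 at 5–8 cm in WT, a log2 ratio of 6.09, and 16.5 at 9–12 cm and 7.30 at 5–8 cm in *pho*. *GI*, which peaks late in the day and also acts in flowering, had 8978 at 9–12 cm and 1265 at 5–8 cm in WT, against 2355 at 9–12 cm and 1276 at 5–8 cm in *pho*. *PRR1*, the rice counterpart of *TOC1* in *Arabidopsis*, had 1353 at 9–12 cm and 429 at 5–8 cm in WT, and 301 at 9–12 cm and 479 at 5–8 cm in *pho*. The 3 other tested clock genes, pseudo-response regulators, lay between -0.99 and -0.25. The time of collection is not given in the sources used here, and with 1 array per length it and panicle length cannot be told apart.

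Genes for late embryogenesis abundant (LEA) proteins and dehydrins, which accumulate under drought and in seeds, fell. Of 7 tested members 4 fell and none rose, with a median log2 ratio of -2.26. *RAB21*, a dehydrin gene induced by abscisic acid, had 27.2 at 9–12 cm and 4089 at 5–8 cm in WT, a log2 ratio of -6.57 and the lowest of all probe sets. Its other probe set had -3.57. In *pho* it had 8350 at 9–12 cm and 14466 at 5–8 cm. *EM* had 74.7 at 9–12 cm and 846 at 5–8 cm in WT, and 902 at 9–12 cm and 8140 at 5–8 cm in *pho*. *RAB16B*, next of kin to *RAB21*, had 56.6 at 9–12 cm and 444 at 5–8 cm in WT, and 934 at 9–12 cm and 2589 at 5–8 cm in *pho*. *LEA19* had 247 at 9–12 cm and 1247 at 5–8 cm in WT, and 341 at 9–12 cm and 1620 at 5–8 cm in *pho*. *EM*, *RAB16B* and *LEA19* fell in *pho* as well, and in all 4 the longer WT panicle had the lowest of the 4 signals. Over all 361 genes that fell in WT, this array was the lowest in 304 (84.2%). Members of the *RAB16* family are alike in sequence, and the array may not separate them.

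Heat shock genes moved both ways. Among 32 tested heat shock proteins and factors 9 fell and 3 rose. Their median of -0.33 lay below that of all probe sets with each scaling. *HSP18.6*, a small heat shock protein gene, had 394 at 9–12 cm and 4393 at 5–8 cm in WT, and 6886 at 9–12 cm and 7978 at 5–8 cm in *pho*. *HSP24.1*, of the same class of chaperones, had 233 at 9–12 cm and 2471 at 5–8 cm in WT, and 6461 at 9–12 cm and 4715 at 5–8 cm in *pho*. *HSFB2C*, a heat shock factor gene, had 171 at 9–12 cm and 1350 at 5–8 cm in WT, and 2164 at 9–12 cm and 1642 at 5–8 cm in *pho*. In 8 of the 9 genes that fell the longer WT panicle was the lowest of the 4 arrays. That share is close to the share over all genes that fell, 304 of 361 (84.2%). The genes that rose were *HSFB1*, *HSP17.9B* and *HSP18.8*, whose log2 ratios in WT were 2.32 for *HSFB1*, 1.63 for *HSP17.9B* and 1.48 for *HSP18.8*, and all 3 rose in *pho* too. For *HSFB1* the signals were 252 at 9–12 cm and 37.6 at 5–8 cm in WT, and 1045 at 9–12 cm and 190 at 5–8 cm in *pho*.

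*DREB1B* and *DREB1G*, genes of the DREB1 family of cold-induced transcription factors, were among the 15 named genes with the highest ratios and were not taken from a list. *DREB1B* had 941 at 9–12 cm and 38.0 at 5–8 cm in WT, a log2 ratio of 4.15, and 885 at 9–12 cm and 767 at 5–8 cm in *pho*. *DREB1G* had 347 at 9–12 cm and 14.7 at 5–8 cm in WT, and 151 at 9–12 cm and 150 at 5–8 cm in *pho*. Here the shorter WT panicle was the array that stood apart, below the other 3.

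Chlorophyll and photosynthesis genes fell in part. Of 16 tested members 5 fell and none rose, with a median of -0.26 in WT and 0.45 in *pho*. The WT median lay below that of all probe sets with each scaling. *CHLP*, for the reductase that makes the phytol tail of chlorophyll, had 997 at 9–12 cm and 4080 at 5–8 cm in WT, and 6103 at 9–12 cm and 5147 at 5–8 cm in *pho*. *LHCP*, a light-harvesting chlorophyll-binding protein gene, had 2500 at 9–12 cm and 8632 at 5–8 cm in WT, and 22086 at 9–12 cm and 11517 at 5–8 cm in *pho*. *PSAG*, a subunit gene of photosystem I, had 245 at 9–12 cm and 858 at 5–8 cm in WT, and 2029 at 9–12 cm and 1186 at 5–8 cm in *pho*. *GLK1*, a regulator of chloroplast development, and *PORA* were the others that fell, with log2 ratios of -1.61 and -1.54, and were chosen after their values were seen. *CAO*, a gene of chlorophyll b synthesis outside the list, had 332 at 9–12 cm and 1596 at 5–8 cm in WT, and 2089 at 9–12 cm and 1699 at 5–8 cm in *pho*. In all of them the longer WT panicle was the lowest of the 4 arrays, as in 84.2% of all genes that fell in WT. So it was for *CRSH1*, a plastid synthetase gene of the signal ppGpp. It had 250 at 9–12 cm and 1150 at 5–8 cm in WT, and 1363 at 9–12 cm and 1434 at 5–8 cm in *pho*.

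**Figure D4:**
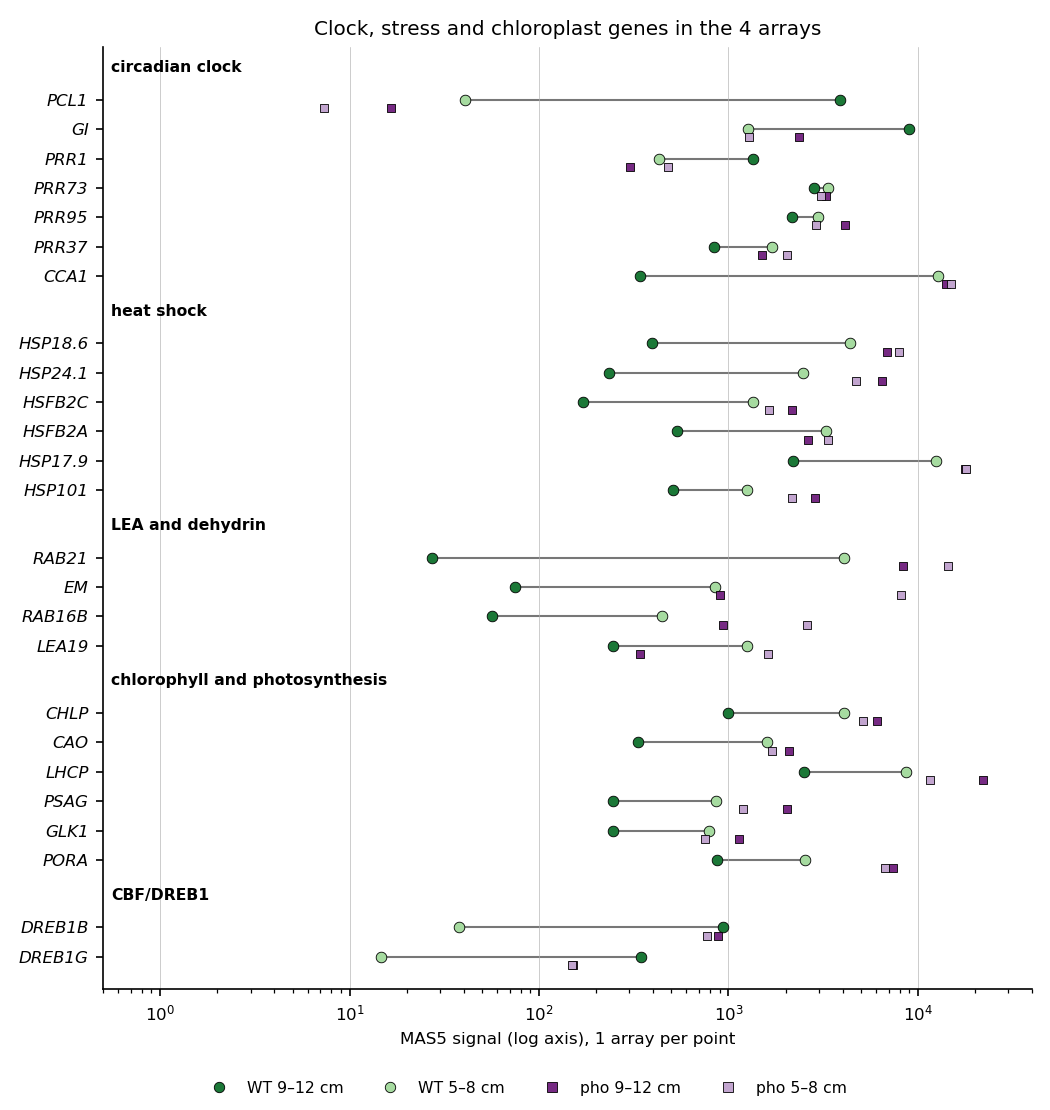
MAS5 signals on a log axis, 1 array per point, for clock, heat shock, LEA, chlorophyll and DREB1 genes; circles are WT, squares are *pho*, and dark symbols are 9–12 cm. For *CCA1* the longer WT panicle lies at 340, far left of the 3 other arrays between 12714 and 14906, and for *DREB1B* it is the shorter WT panicle that lies apart at 38.0.

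Some genes that fell in WT rose in *pho*. So did 106 of the 657 probe sets that fell (16.1%), against 11.3% of all probe sets, a count that depended on the processing. The 4 described next were picked for these opposite ratios. *HOX24*, an HD-Zip gene induced by drought, had 4.70 at 9–12 cm and 215 at 5–8 cm in WT, against 692 at 9–12 cm and 223 at 5–8 cm in *pho*. Of 30 tested HD-Zip genes 4 fell, 1 rose and 25 did neither. The NAC list, with only 4 tested members, had 2 falls and a median of -1.01, which was -0.15 without the minimum signal, -0.78 with a pseudocount of 64 and -0.88 with a minimum signal of 200. *NAC048* had 255 at 9–12 cm and 761 at 5–8 cm in WT, and 3647 at 9–12 cm and 1089 at 5–8 cm in *pho*. *NAC068* had 72.6 at 9–12 cm and 179 at 5–8 cm in WT, and 1751 at 9–12 cm and 595 at 5–8 cm in *pho*. Of 3 tested WRKY genes 1 fell, *WRKY71*, a factor gene of defence, which had 60.9 at 9–12 cm and 176 at 5–8 cm in WT, and 3022 at 9–12 cm and 347 at 5–8 cm in *pho*. *SAPK9*, a protein kinase gene of abscisic acid signalling, went the opposite way, with 3687 at 9–12 cm and 441 at 5–8 cm in WT and 226 at 9–12 cm and 489 at 5–8 cm in *pho*.

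Floral identity genes were less than 2-fold apart between the lengths in WT, with 1 exception among 22 tested genes of the MADS-box lists, which also hold the carpel gene *DL*. *OsMADS55*, of the SVP-like group that regulates flowering time, had 340 at 9–12 cm and 119 at 5–8 cm in WT, and 1309 at 9–12 cm and 531 at 5–8 cm in *pho*. With the hybridization controls it was no longer past 2-fold, and *OsMADS18*, of the AP1/FUL-like group, was past it on the lower side. Among the 5 SEP-like genes, which act with other MADS-box proteins in all floral organs, the log2 ratios lay between -0.25 and 0.11. In the B-class and AGL6-like group they lay between -0.36 and 0.48, with *OsMADS16*, a B-class gene of stamens and lodicules, at 11380 in WT of 9–12 cm and 8164 in WT of 5–8 cm. In the C-, D-class and B-sister group they lay between -0.34 and 0.65, with *OsMADS3*, a C-class gene of stamens, at 658 in WT of 9–12 cm and 414 in WT of 5–8 cm. In *pho* the same 22 genes had 3 above and 4 below 2-fold. None of 3 tested genes of the spikelet meristem and the panicle branches passed 2-fold with the authors' scaling. Nor did any of 7 KNOX and WOX genes, 6 genes of the YABBY list, 11 SPL genes and 9 gibberellin genes. Over all genes 6.04% rose and 2.55% fell, so lists this small may hold none at those shares. *RCN1*, a branching gene chosen after its values were seen, had 89.8 at 9–12 cm and 3.5 at 5–8 cm in WT, under the minimum signal. With centred arrays 2 SPL genes, *SPL14* and *SPL4*, and 2 YABBY genes, *YAB5* and *YAB4*, were past 2-fold on the lower side. With the hybridization controls these were joined by *OSH6* of the KNOX genes and *GID1* of the gibberellin genes; *SPL4*, *YAB4* and *GID1* were chosen after their values were seen.

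Most lists of cell division and growth genes lay somewhat lower in the longer WT panicle, with no member past 2-fold with the authors' scaling. Of 25 tested DNA replication factors none passed, 24 had a ratio below 0, and the median was -0.39, against -1.26 and 16 genes that fell in *pho*. The largest difference was that of *RPA70C*, a subunit gene of the single-strand binding protein, with 610 at 9–12 cm and 1100 at 5–8 cm in WT. Of 27 cyclins and cyclin-dependent kinases 24 had a ratio below 0, with a median of -0.25, and in *pho* the median was -0.70 and 11 fell. *CYCD3-2*, a D-type cyclin gene, had 997 at 9–12 cm and 1703 at 5–8 cm in WT, and 595 at 9–12 cm and 1726 at 5–8 cm in *pho*. Growth-regulating factor genes, which promote cell proliferation, had 9 of 10 below 0 and a median of -0.40. These 3 medians lay below the median of all probe sets with each scaling, but the counts past 2-fold changed. On the lower side 5 replication factors and 1 cyclin passed with centred arrays, and 8 replication factors, 3 cyclins or kinases and 1 growth-regulating factor gene with the hybridization controls. The core histone list did not lie lower. Its 5 tested genes had a median of 0.06, with 3 above 0, 2 below and none past 2-fold. That median was -0.06 after quantile normalization, -0.25 with centred arrays and -0.44 with the hybridization controls. Ribosomal protein genes had a median of 0.11 over 23 genes. It was -0.03 after quantile normalization, -0.20 with centred arrays and -0.39 with the hybridization controls. The medians of all probe sets were lower each time, at -0.05, -0.30 and -0.49.

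The hormone lists had few members past 2-fold. Over all genes 6.04% rose and 2.55% fell, so lists of this size would hold few at those shares. Of 46 auxin genes 1 fell and none rose, and it was *GH3.1*, for an enzyme that conjugates auxin, with 750 at 9–12 cm and 1689 at 5–8 cm in WT and 1000 at 9–12 cm and 897 at 5–8 cm in *pho*. With centred arrays 2 auxin genes fell, with the hybridization controls 3 fell, and none rose with either. Of 22 genes for JAZ repressors and jasmonate synthesis 2 rose. *JAZ9* had 1776 at 9–12 cm and 628 at 5–8 cm in WT, and 304 at 9–12 cm and 52.8 at 5–8 cm in *pho*. *JAZ10* had 526 at 9–12 cm and 216 at 5–8 cm in WT, and 2266 at 9–12 cm and 197 at 5–8 cm in *pho*. With the hybridization controls no gene of this list rose and 3 fell, and with centred arrays 1 rose and 3 fell. None of 27 cytokinin genes passed 2-fold with the authors' scaling, while 1, *LOGL5*, fell after quantile normalization, 2 with centred arrays and 3 with the hybridization controls.

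Set beside the mutant, the rises of WT were shared more often than the falls. Of 1511 probe sets that rose in WT, 738 (48.8%) also rose in *pho*, 128 (8.47%) fell in *pho* and 645 did neither. Over all 23328 probe sets, 11.3% rose and 11.4% fell in *pho*. Of 657 probe sets that fell in WT, 105 (16%) also fell in *pho*, 106 (16.1%) rose in *pho* and 446 did neither. Read from the mutant's side, 28.0% of the probe sets that rose in *pho* rose in WT, and 3.96% of those that fell in *pho* fell in WT. With the hybridization controls 60.0% of the rises and 19.3% of the falls were shared, and with centred arrays 48.6% and 33.5%. The shares of all probe sets that rose or fell in *pho* are not given for these scalings, so more or less sharing cannot be read from them. The median log2 ratio in *pho* was -0.163 with the authors' scaling, -0.114 with the hybridization controls and -0.575 with centred arrays.

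**Figure D5:**
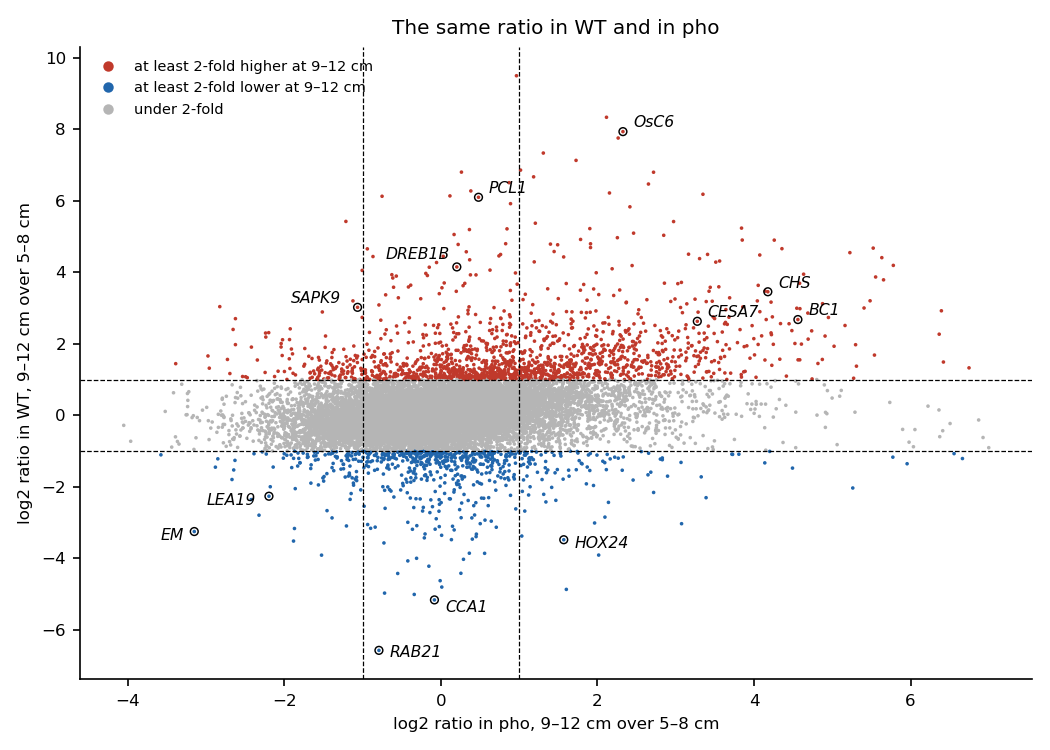
Each point is a probe set at its log2 ratio of 9–12 cm over 5–8 cm, in *pho* on the x axis and in WT on the y axis, coloured by its shift in WT; dashed lines mark 2-fold. Many red points lie right of the dashed line, where 738 of 1511 rose in both genotypes, while *CCA1*, *RAB21* and most blue points lie between the dashed lines of *pho*.

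The array of the longer WT panicle set most of the falls apart. It also had the highest summed signal of the hybridization controls, at 120710. That sum was 85637 in WT of 5–8 cm, 86163 in *pho* of 9–12 cm and 89623 in *pho* of 5–8 cm. Any part of this difference in the falls was not tested. Among the 657 probe sets that fell, 348 (53.0%) had a signal in WT of 9–12 cm at least 2-fold below all 3 other arrays, and 48 (7.31%) had one in WT of 5–8 cm at least 2-fold above the others. Among the 1511 that rose, the longer WT panicle was at least 2-fold above all others for 24.3%, and the shorter WT panicle at least 2-fold below all others for 15.5%. Of the rises 186 (12.3%) had signals under 100 in both *pho* arrays, as *RAFTIN1* did, compared with 3.39% of all probe sets. These shares were not matched for signal. The minimum was set on the WT arrays and 526 of the rises were in the dimmest class, so the excess cannot be read as a trait of the rises. Between the WT arrays 9.29% of the probe sets were at least 2-fold apart, close to the 8.81% between WT and *pho* of 5–8 cm, and fewer than the 22.7% between the *pho* arrays.

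Where a gene had several probe sets they mostly moved alike. Among 1809 such genes the median gap between the log2 ratios of their probe sets was 0.35. Of 89 that rose, every probe set lay above 0 in 77 and rose in 51, and of 48 that fell, every probe set lay below 0 in 43 and fell in 19. None had probe sets past 2-fold in opposite directions.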

How the data were processed

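The deposited values are intensities on a linear scale: MAS5 signals of probe sets, made by the authors in GCOS (versions not given in the sources used here), with the overall intensity of every array scaled alike. Detection calls were not used here. The 123 AFFX controls were left out. The ratio was log2((signal at 9–12 cm + 16)/(signal at 5–8 cm + 16)) for probe sets whose signal averaged 100 or more in the WT arrays, without further normalization. With 1 array per length there was no test, and precision is limited by the number of arrays.

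Probe sets were named by the platform's annotation and symbols of the RefSeq assembly ASM3414082v1. It gave 22436 probe sets 1 gene, and 95 with several genes were named for none. The brightest probe set stood for a gene. The comparison, its members and the 40 lists were chosen with earlier results of these data known. After values were seen, 25 matches of a list name to a different gene were removed and 6 ambiguous names were settled. Named were the 15 genes highest and the 15 lowest, up to 3 members at each end of a list among those past 2-fold or else the member with the largest ratio, and all MADS-box genes. Not every gene this takes is printed, and exceptions are marked. Lists with at least 3 tested genes were described.

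Alternatives were a pseudocount of 1 or 64, no minimum signal or 200, quantile normalization and centring. Further ones were leaving out probe sets with the suffixes _s_at and _x_at, 4-fold, and the mean over the probe sets of a gene. A scaling to the hybridization controls was chosen after seeing the data. The procedure was tested on simulated data and run with matplotlib 3.10.9, pandas 2.3.3, numpy 2.4.6 and Python 3.11.15.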

Additional observations from a re-analysis of the deposited data

Results flagged for a closer look

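For 6 of the named genes the log2 ratio of 9–12 cm over 5–8 cm passed 2-fold in opposite directions in WT and *pho*. Each genotype had 1 array per length, and the difference was not tested. Higher at 9–12 cm in WT and lower in *pho* were *SAPK9* (3.02 in WT, -1.06 in *pho*), and *CIN2* (1.47 in WT, -1.30 in *pho*). Lower in WT and higher in *pho* were *HOX24* (-3.48 in WT, 1.57 in *pho*), *NAC048* (-1.52 in WT, 1.73 in *pho*), *WRKY71* (-1.32 in WT, 3.07 in *pho*), and *NAC068* (-1.14 in WT, 1.53 in *pho*). Of 1511 probe sets that rose in WT, 128 (8.47%) fell in *pho*, against 11.4% of all probe sets. Of 657 that fell in WT, 106 (16.1%) rose in *pho*, against 11.3% of all probe sets. Recomputed under the alternative settings, these counts of opposite shifts stayed near the value given 8 times and did not 10 times. Neither count stayed near it at 4-fold, without a minimum signal, with a pseudocount of 64 or with the hybridization controls.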

How the results depend on the processing

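No paired analysis was possible because each genotype had 1 array per length and no test was made, and for the same reason no array could be left out. Without a minimum signal 5953 probe sets rose and 3064 fell in WT, 1904 rose and 385 fell in both genotypes, and 1 list had a median 2-fold down, against 2 in the setting reported. With centred arrays 942 rose and 1554 fell, of which 458 and 521 did so in both. With the hybridization controls 667 rose and 2771 fell, of which 400 and 535 did so in both, and 2 lists had a median 2-fold up, against 3, because lignin genes came to 0.91. At 4-fold the counts were 380 up, 114 down, 155 up in both and 4 down in both. Falls in both numbered 62 with a pseudocount of 64 and 160 after quantile normalization. The NAC list was under 2-fold with a pseudocount of 64 (-0.78), without a minimum signal (-0.15) and with a minimum of 200 (-0.88), which left 1 list 2-fold down each time. Among the list medians and the ratios of named genes that were recomputed, none past 2-fold changed sign. For a single gene a pseudocount or a minimum signal cannot turn the sign. Centring and the hybridization controls moved the median ratio of all probe sets by less than 2-fold, so little can be read from this. Of the single-gene ratios recomputed, 923 kept their side of 2-fold, 16 passed it and 20 no longer did. Low signals limit the precision of the ratios of dim genes.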
